A study of Mus musculus with 10 samples.

Results

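The 42 collagen genes that GeneChip arrays measured in mouse cerebral cortex are described here across *Crtc1-/-* and WT female mice. They are all genes whose annotated symbol is Col, a number, a and a number, out of 18193 genes measured, and each was read by the brightest of the probe sets that name it alone. Total RNA came from the cortex of 5 *Crtc1-/-* mice, which carry a knockout of the CREB coactivator *Crtc1* for which the sources name no restriction to a cell type (Crtc1KO in the figures), and of 5 WT littermates. All 10 were untreated C57BL/6N females of 2 months, with 1 mouse per array. The published methods describe hippocampi being separated from the cortex, but their array section does not say that this dissection was used. They do not say whether the meninges were removed. Values are on the log2 scale as deposited, changes are *Crtc1-/-* minus WT, and a gene was called when its adjusted p from limma, corrected over all genes, was under 0.05.

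Collagens are trimers of chains that wind into a triple helix, and they differ in what the helices build. Fibrillar collagens (types I, III and V among them) form the fibres of connective tissue, which in the brain lies in the meninges and around larger vessels. Type IV collagens form the sheet of the basement membrane, which in the brain surrounds every vessel and lies under the pia. Other types coat fibrils, form beaded filaments or short hexagonal networks, or span the plasma membrane, and a few are made by neurons. CRTC1 acts with CREB at cAMP response elements in neurons.

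In the cortex of *Crtc1-/-* mice 1 collagen gene fell, 1 rose and 40 were not called. *Col5a1*, the alpha1 chain of the fibril-regulating type V collagen, was 0.768 times as high as in WT cortex. *Col8a1*, a chain of the short-chain type VIII collagen of vessel walls, was 1.60 times as high. The main chains of meningeal and vascular matrix, *Col1a2*, *Col3a1*, *Col4a1* and *Col4a2*, were not called. The 2 calls are 4.76% of the 42 genes, against 0.764% of all genes (139 of 18193; 0.456% lower and 0.308% higher).

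The stretches upstream of these 2 genes are shown because they are the members that changed. They are the 250 bases before the annotated start (RefSeq, GRCm38.p6), at chr2:27886175-27886424 on the plus strand for *Col5a1* and at chr16:57754738-57754987 on the minus strand for *Col8a1*. Capitals mark each match to the GC box GGGCGG on either strand.
Col5a1: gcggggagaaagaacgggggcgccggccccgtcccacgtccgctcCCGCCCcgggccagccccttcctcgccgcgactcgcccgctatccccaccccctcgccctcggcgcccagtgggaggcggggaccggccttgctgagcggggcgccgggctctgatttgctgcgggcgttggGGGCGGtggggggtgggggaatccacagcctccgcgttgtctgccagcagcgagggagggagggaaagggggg
Col8a1: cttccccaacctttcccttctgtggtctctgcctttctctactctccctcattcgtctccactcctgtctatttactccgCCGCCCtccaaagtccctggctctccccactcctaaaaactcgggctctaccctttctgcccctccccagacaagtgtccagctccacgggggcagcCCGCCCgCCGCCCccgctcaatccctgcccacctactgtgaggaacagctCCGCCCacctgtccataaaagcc
The *Col5a1* stretch holds 2 such matches and 76.4% G or C, and the *Col8a1* stretch holds 4 and 60.8%. Neither stretch holds the cAMP response element TGACGTCA or its shorter form TGACG, searched on both strands, where each full element contains the shorter form on both strands. Over 36 upstream stretches of 33 matched collagen genes, the full element was in 0 and the shorter form in 4 (11.1%), those of *Col4a5*, *Col7a1*, *Col11a2* and *Col24a1*. Of all 32851 stretches of this length, 1.55% hold the full element, 17.8% the shorter form and 32.7% the GC box, which was in 21 (58.3%) of the collagen stretches. These are matches of letters only.

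The arrays first showed the knockout itself. *Crtc1* read between 5.96 and 6.60 in *Crtc1-/-* mice and between 9.51 and 9.86 in WT mice (log2 fold change −3.32, adjusted p = 8.35e-08 from limma), at a probe set whose place relative to the deleted part is not given. The medians of the arrays lay within 0.03 of each other, which values already normalized between arrays would show in any case. Their correlations over all probe sets were 0.994 to 0.998. Neither measure tells whether a mouse stood apart in smaller sets of genes. Over all genes, 83 fell and 56 rose, and the median log2 fold change was −0.0030. Precision is limited by the 5 mice of each genotype, and the standard errors of the 42 log2 fold changes lay between 0.05 and 0.13. Cortical neuron markers were bright, with the probe set of *Snap25*, a synaptic protein, above 99.97% of probe sets and that of *Slc17a7*, the vesicular glutamate transporter of cortical excitatory neurons, above 94.5%.

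Fibrillar collagens make up 11 of the 42 genes, of which 1 fell, none rose and 10 were not called. *Col5a1* (probe set 1434479_at) read 5.95, 6.12, 6.11, 6.08 and 5.99 in *Crtc1-/-* mice 1 to 5, against 6.45, 6.30, 6.59, 6.31 and 6.50 in WT mice 1 to 5. Every *Crtc1-/-* mouse was lower than every WT mouse. *Crtc1-/-* mice averaged 6.05 ± 0.08, against 6.43 ± 0.12 for WT mice (SD, n = 5 each). The log2 fold change was −0.38 with a standard error of 0.06 (limma, adjusted p = 0.0154; 95% confidence interval of the fold 0.699 to 0.845). The two-sided exact permutation p was 0.00794, which is the lowest that this design can reach. Type V collagen is built into type I fibrils and sets their diameter.

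The second probe set of *Col5a1*, 1416740_at, read between 5.26 and 5.45 in *Crtc1-/-* mice and between 5.55 and 6.06 in WT mice. Its log2 fold change was −0.44 (standard error 0.08; limma over all 45037 probe sets, adjusted p = 0.0596), and the groups did not overlap. The third and dimmest, 1416741_at, overlapped between genotypes and had −0.12 (adjusted p = 0.769). The partner chain of type V, *Col5a2*, read 5.34, 5.45, 5.48, 5.57 and 5.38 in *Crtc1-/-* mice 1 to 5 and 5.35, 5.45, 5.18, 5.29 and 5.13 in WT mice 1 to 5. Its groups overlapped, and its log2 fold change of 0.16 had the opposite sign to that of *Col5a1* (adjusted p = 0.424). *Col5a3*, the third type V chain, had −0.10 (adjusted p = 0.730).

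Type I and type III, the bulk of meningeal fibres, gave values that overlapped between genotypes. *Col1a2* (1450857_a_at), the alpha2 chain of type I, read 8.59, 8.72, 8.45, 8.87 and 8.70 in *Crtc1-/-* mice 1 to 5, against 8.62, 8.81, 8.60, 8.68 and 8.59 in WT mice 1 to 5. The *Crtc1-/-* mice held both the lowest and the highest value, and the log2 fold change was 0.01 (adjusted p = 0.989), with a 95% confidence interval of the fold from 0.897 to 1.12. *Col3a1*, the single chain of type III, read 6.37, 6.45, 6.11, 6.43 and 6.72 in *Crtc1-/-* mice 1 to 5 and 6.41, 6.66, 6.29, 6.63 and 6.36 in WT mice 1 to 5. Its groups overlapped over most of their range (log2 fold change −0.05, adjusted p = 0.929; 95% confidence interval of the fold 0.820 to 1.13). For *Col1a1* the log2 fold change was 0.12 at both of its probe sets (adjusted p = 0.528 over genes for the brighter, with a 95% confidence interval of the fold from 0.998 to 1.19). The dimmer probe sets of *Col1a2* had −0.13 and −0.05 (limma over probe sets, adjusted p = 0.747 and 0.941).

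*Col27a1*, a fibrillar chain of cartilage that is also found in other tissues, read 6.44, 6.55, 6.69, 6.57 and 6.42 in *Crtc1-/-* mice 1 to 5 and 6.54, 6.52, 6.66, 6.54 and 6.52 in WT mice 1 to 5. Its range in *Crtc1-/-* mice enclosed that in WT mice (log2 fold change −0.02, adjusted p = 0.950). The other fibrillar genes, *Col2a1*, *Col11a1*, *Col11a2* and *Col24a1*, had log2 fold changes between −0.08 and 0.10. Over the 11 fibrillar genes the median was 0.01, with 6 above 0 and 5 below.

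**Figure D1:**
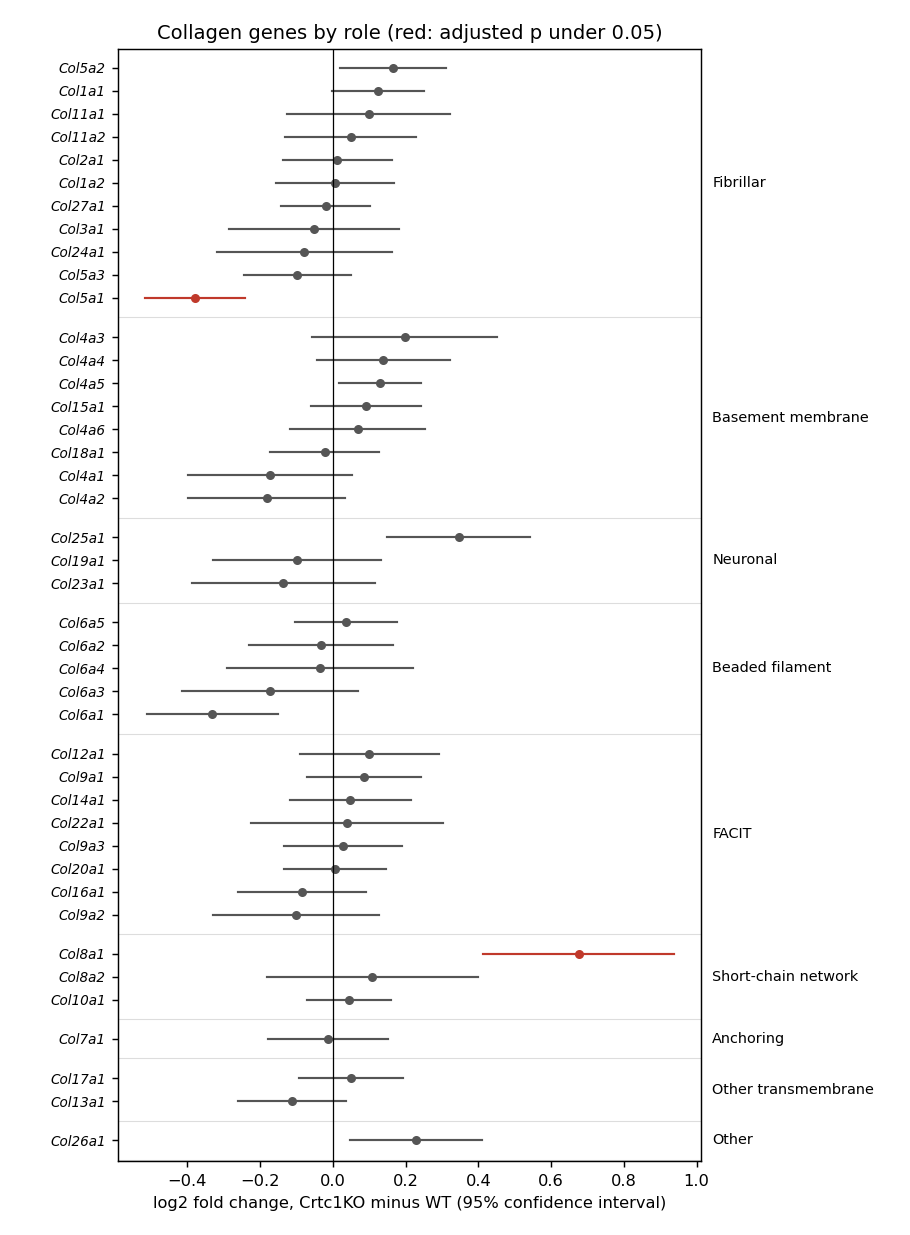
Change of each of the 42 collagen genes (rows, grouped by role) as log2 fold change of *Crtc1-/-* against WT (x axis), with the 95% confidence interval from limma. Only *Col5a1* at −0.38 and *Col8a1* at 0.68 are red, for an adjusted p under 0.05 over all genes.

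Basement membrane collagens make up 8 of the 42 genes, and none was called, although 1 (*Col4a5*) had an unadjusted p under 0.05. *Col4a1* (1452035_at) and *Col4a2* (1424051_at) encode the chains that form the type IV network of vessels. *Col4a1* read 7.76, 8.11, 7.94, 8.07 and 7.96 in *Crtc1-/-* mice 1 to 5, against 8.33, 8.20, 8.37, 7.90 and 7.91 in WT mice 1 to 5. WT mice 1, 2 and 3 lay above all *Crtc1-/-* mice, and WT mice 4 and 5 lay among them. The change was −0.17 on the log2 scale with a standard error of 0.10 (adjusted p = 0.667). *Col4a2* read 7.11, 7.33, 7.23, 7.31 and 7.22 in *Crtc1-/-* mice 1 to 5, against 7.65, 7.54, 7.59, 7.17 and 7.16 in WT mice 1 to 5, with the same WT mice high. Its log2 fold change was −0.18 (standard error 0.10, adjusted p = 0.610).

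*Col4a5*, whose chain joins the type IV network of kidney and other basement membranes, read 5.52, 5.39, 5.42, 5.52 and 5.41 in *Crtc1-/-* mice 1 to 5 and 5.44, 5.33, 5.21, 5.27 and 5.36 in WT mice 1 to 5. The groups overlapped, the change was 0.13 on the log2 scale (adjusted p = 0.421), and the dimmer probe set of the gene had −0.0054. The chains *Col4a3*, *Col4a4* and *Col4a6*, known from kidney and other organs, were dim, above 22.1% to 33.9% of probe sets, and had log2 fold changes between 0.07 and 0.20. *Col15a1* and *Col18a1*, the multiplexins at the outer face of basement membranes, had 0.09 and −0.02. Over the 8 genes the median log2 fold change was 0.08.

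**Figure D2:**
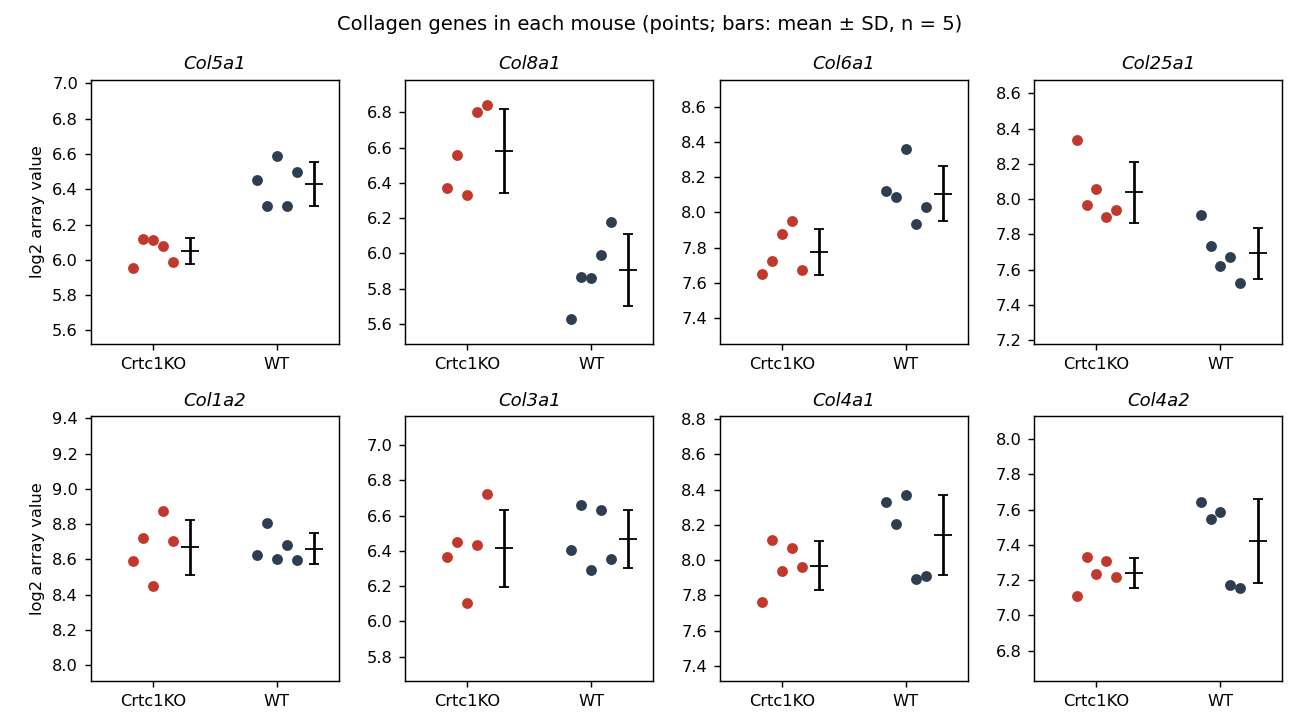
Log2 array values (y axis) of 8 collagen genes in 5 *Crtc1-/-* and 5 WT mice, with 1 point per mouse and the group mean ± SD as bars; every panel spans 1.5 log2 units and does not start at 0. The groups are apart in *Col5a1* and *Col8a1*, they overlap in the other 6, and WT mice 4 and 5 lie apart from the other WT mice in *Col4a1* and *Col4a2*.

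Short-chain collagens form hexagonal networks, and of these 3 genes 1 rose. *Col8a1* (1455627_at) read 6.37, 6.56, 6.33, 6.80 and 6.84 in *Crtc1-/-* mice 1 to 5, against 5.63, 5.87, 5.86, 5.99 and 6.18 in WT mice 1 to 5. Every *Crtc1-/-* mouse was higher than every WT mouse. *Crtc1-/-* mice averaged 6.58 ± 0.24, against 5.90 ± 0.20 for WT mice (SD, n = 5 each). The log2 fold change was 0.68 with a standard error of 0.12 (limma, adjusted p = 0.0238; exact permutation p = 0.00794; 95% confidence interval of the fold 1.33 to 1.92). Of all genes, 34 had a larger change in either direction. The call was lost without any of *Crtc1-/-* mice 2, 4 and 5 and WT mice 1 to 4 (adjusted p from 0.0516 to 0.0721), with log2 fold changes of 0.61 to 0.74 over all mice left out in turn.

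The second probe set of *Col8a1*, 1418440_at, also rose, by 0.55 on the log2 scale (standard error 0.10; limma over probe sets, adjusted p = 0.0444). Its values lay between 5.77 and 6.19 in *Crtc1-/-* mice and between 5.34 and 5.79 in WT mice, so that *Crtc1-/-* mouse 3 was just under WT mouse 5. The third, 1418441_at, was dim, and had 0.14 (adjusted p = 0.822). *Col8a2*, whose chain also forms type VIII collagen, read between 4.29 and 4.79 in *Crtc1-/-* mice and between 3.995 and 4.72 in WT mice, so that its groups overlapped (log2 fold change 0.11, adjusted p = 0.874). *Col10a1*, a network chain of growth cartilage, had 0.04.

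Of the neuronal collagens, none was called. *Col25a1* (1438540_at), a transmembrane collagen of neurons also found in amyloid plaques, read 8.33, 7.96, 8.06, 7.90 and 7.94 in *Crtc1-/-* mice 1 to 5, against 7.91, 7.74, 7.62, 7.67 and 7.52 in WT mice 1 to 5. Only the lowest *Crtc1-/-* mouse and the highest WT mouse crossed. The change was 0.35 on the log2 scale with a standard error of 0.09 (limma, adjusted p = 0.146; exact permutation p = 0.0159), and its dimmer probe set had 0.10 (adjusted p = 0.888).

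*Col19a1*, which interneurons make and which takes part in synapse formation, read 8.28, 8.09, 8.05, 8.09 and 8.02 in *Crtc1-/-* mice 1 to 5 and 8.46, 8.16, 8.47, 8.01 and 7.92 in WT mice 1 to 5. The WT range enclosed the *Crtc1-/-* range (log2 fold change −0.10, adjusted p = 0.851). *Col23a1*, another transmembrane collagen, read 4.78, 5.07, 5.36, 5.42 and 5.47 in *Crtc1-/-* mice 1 to 5 and 5.28, 5.45, 5.36, 5.38 and 5.32 in WT mice 1 to 5. *Crtc1-/-* mice 1 and 2 were low and the other mice of both genotypes lay together (log2 fold change −0.14, adjusted p = 0.805). Its dimmer probe sets had −0.17 and −0.27 (adjusted p = 0.871 and 0.492 over probe sets). Over the 3 genes the median log2 fold change was −0.10.

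Type VI collagen forms beaded filaments around cells, and none of its 5 measured genes was called. *Col6a1* (1448590_at), the alpha1 chain, read 7.65, 7.73, 7.88, 7.95 and 7.67 in *Crtc1-/-* mice 1 to 5, against 8.12, 8.09, 8.36, 7.93 and 8.03 in WT mice 1 to 5. Among *Crtc1-/-* mice, number 4 alone lay above a WT mouse, which was WT mouse 4. The change was −0.33 on the log2 scale with a standard error of 0.08 (limma, adjusted p = 0.125), and it passed in 1 of 19 alternative fits, that with a trended and robust variance prior (adjusted p = 0.0471). Its partner chains did not pass, *Col6a2* with −0.03 (adjusted p = 0.948) and *Col6a3* with −0.17 (adjusted p = 0.696), and *Col6a4* and *Col6a5* lay at −0.04 and 0.04.

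The fibril-associated collagens, which coat the surface of fibrils, made up 8 genes, of which none was called. All 8 had log2 fold changes between −0.10 and 0.10, with a median of 0.03, and none had an unadjusted p under 0.05. *Col12a1*, which binds type I fibrils, had 0.10 and *Col16a1* had −0.09. Of the genes outside these groups, *Col26a1*, whose protein was described in testis and ovary, read 5.05, 4.88, 4.84, 5.05 and 4.96 in *Crtc1-/-* mice 1 to 5 and 4.41, 4.79, 4.80, 4.85 and 4.79 in WT mice 1 to 5. Only 1 pair of mice crossed, and WT mouse 1 was low (log2 fold change 0.23, adjusted p = 0.351). *Col7a1*, the anchoring fibril of skin, had −0.01, and the transmembrane collagens *Col13a1* and *Col17a1* had −0.11 and 0.05.

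Over all 42 genes, 24 log2 fold changes were above 0 and 18 below, with a median of 0.02. The groups did not overlap in 2 genes (4.76%), against 3.14% of all genes. An unadjusted p under 0.05 was found in 7 genes (16.7%), against 9.86% of all genes. Of the 82 probe sets of these genes, 3 passed over all probe sets, 1 of *Col5a1* and 2 of *Col8a1*. In 23 of the 40 dimmer probe sets the log2 fold change had the sign of the brightest probe set of the same gene. Of the 20 genes whose probe sets lie under the median brightness of the array, none was called and 1 had an unadjusted p under 0.05. Brightness belongs to the probes, so it does not rank the genes by transcript level.

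**Figure D3:**
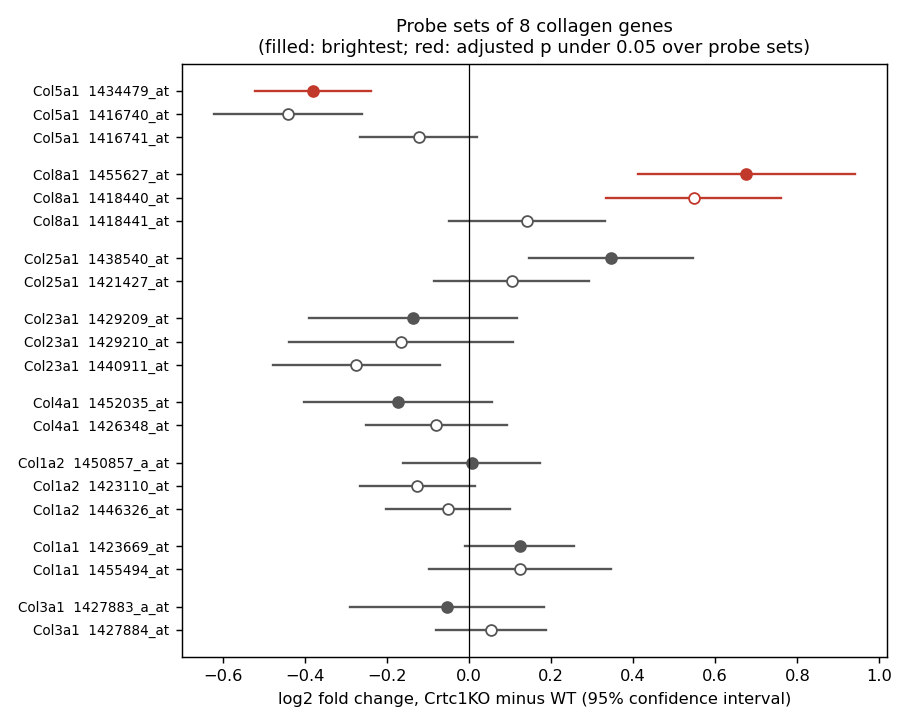
Change at each probe set (rows) of 8 collagen genes, as log2 fold change of *Crtc1-/-* against WT (x axis) with its 95% confidence interval, the brightest filled, and red for an adjusted p under 0.05 over all probe sets. The 3 red probe sets are 1 of *Col5a1* at −0.38 and 2 of *Col8a1* at 0.68 and 0.55, and the dimmest probe set of both genes lies closer to 0.

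Of the chains that share a molecule, those of the vascular type IV network followed each other most closely from mouse to mouse. Of 13 pairs of chains that can share a molecule, 11 were compared across the 10 mice, and the pairs with *Col5a1* or *Col8a1* were left out because the genotypes formed separate clusters. The pairs were named after their values were seen, and the p-values and their correction do not allow for that choice. *Col4a1* and *Col4a2* varied together (Pearson r = 0.97, permutation p = 1e-05, the smallest that 100000 resamples give; Spearman rho = 0.964, permutation p = 6e-05). After Benjamini-Hochberg correction over 11 pairs these were 0.00011 and 0.00066, and without the 2 mice farthest from the median of *Col4a1* r was 0.94. With each mouse expressed as its deviation from its genotype's mean, r was 0.96. The annotated starts of *Col4a1* and *Col4a2* lie 21 bases apart on opposite strands of chromosome 8 (RefSeq, GRCm38.p6), the chromosome that also carries *Crtc1*.

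None of the other 10 pairs passed after correction. *Col1a1* and *Col1a2* had r = 0.10 and rho = 0.07 (permutation p = 0.791 and 0.865, adjusted 0.815 and 0.892), and r was −0.17 without the 2 farthest mice. *Col6a1* and *Col6a2* had r = 0.42 and rho = 0.39 (permutation p = 0.229 and 0.264, adjusted 0.629 and 0.731), and r was 0.18 without the 2 farthest mice. The dim pair *Col4a3* and *Col4a4* had r = 0.55 and rho = 0.76 (permutation p = 0.0963 and 0.0150, adjusted 0.530 and 0.0826), and r was 0.55 without the 2 farthest mice.

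**Figure D4:**
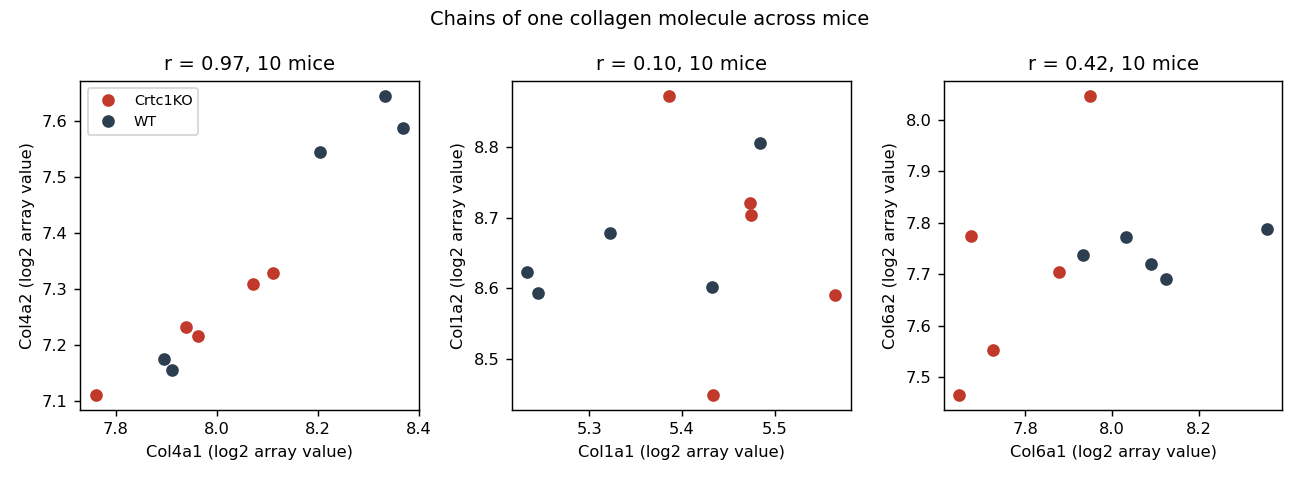
Log2 array values of chains of one collagen molecule plotted against each other in 10 mice (1 point per mouse, *Crtc1-/-* in red and WT in dark blue). *Col4a1* and *Col4a2* follow a line (r = 0.97), while *Col1a1* with *Col1a2* (r = 0.10) and *Col6a1* with *Col6a2* (r = 0.42) scatter.

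The label of meninges and vessels was set against markers of those cells. Of 13 measured markers of meningeal fibroblasts, such as *Slc6a13*, a transporter, and *Aldh1a2*, a retinoic acid enzyme, 0 were called (limma; 1 had an unadjusted p under 0.05, *Slc47a1*), and their mean lay between 6.37 and 6.84 in *Crtc1-/-* mice and between 6.49 and 6.61 in WT mice. Of 13 endothelial markers 0 were called and 0 had an unadjusted p under 0.05, and of 11 markers of pericytes and smooth muscle 0 were called and 2 had one. The endothelial mean lay between 7.76 and 7.92 in *Crtc1-/-* mice and between 7.65 and 7.96 in WT mice. That of pericytes and smooth muscle lay between 7.37 and 7.64 in *Crtc1-/-* mice and between 7.22 and 7.57 in WT mice. Over all genes, 0.764% were called and 9.86% had an unadjusted p under 0.05. In a piece of tissue, fewer cells of a type and less RNA per cell cannot be told apart.

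Across the 10 mice, 18 relations were computed between the brightest fibrillar and basement membrane genes and these 3 list means. They too were named after their values were seen, which the p-values and their correction do not allow for. *Col1a2* followed the meningeal mean (Pearson r = 0.87, permutation p = 0.00168, adjusted 0.0302; Spearman rho = 0.81, permutation p = 0.00739, adjusted 0.0665). Without the 2 mice farthest from the median of that mean r was 0.59, so that the relation rests on *Crtc1-/-* mice 3 and 4, the lowest and the highest in both. *Col3a1* with the same mean had r = 0.62 and rho = 0.83 (permutation p = 0.0584 and 0.00468, adjusted 0.263 and 0.0665), and r was 0.87 without the 2 farthest mice.

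*Col4a1* and *Col4a2* had r = 0.69 and r = 0.72 with the endothelial mean (permutation p = 0.0286 and 0.0201, adjusted 0.172 for both; rho = 0.72 and 0.75, permutation p = 0.0239 and 0.0179, adjusted 0.107 for both), and r was 0.67 and 0.70 without the 2 farthest mice. WT mice 4 and 5, low in both genes, also had the lowest endothelial means (7.65 and 7.74) and the lowest means of pericytes and smooth muscle (7.22 and 7.24). The same WT mice were also lowest in the marker means of microglia (8.61 and 8.72) and astrocytes (10.19 in both). They were highest in the mean of cortical neurons (11.16 and 11.12). In the meningeal, choroid plexus, blood, oligodendrocyte and hippocampal means they were not the lowest mice together. The part of any of these cells in the type IV values was not tested. No other relation passed after correction.

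**Figure D5:**
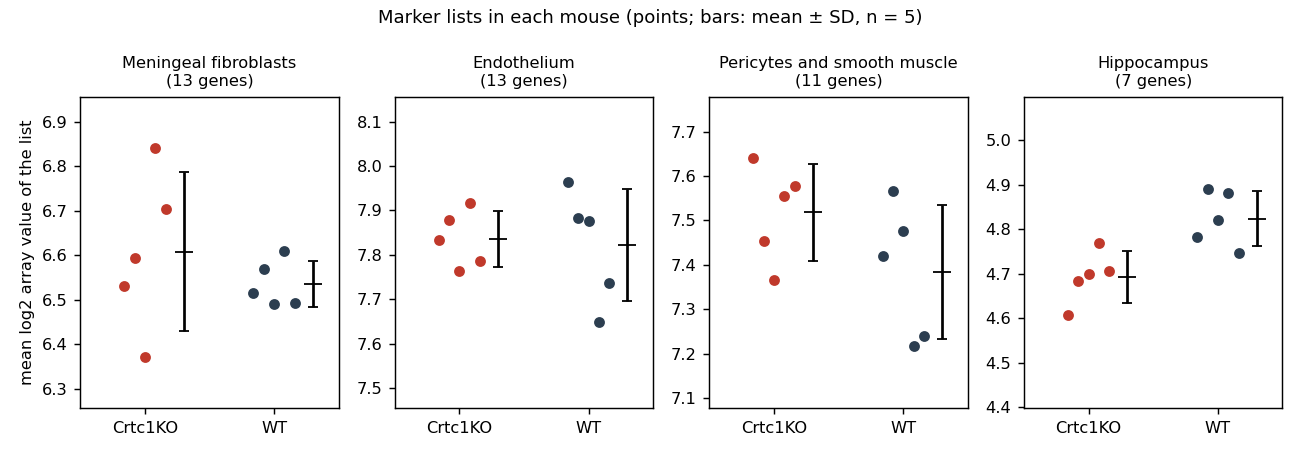
Mean log2 array value (y axis) of the markers of meningeal fibroblasts, endothelium, pericytes and smooth muscle, and hippocampus in 5 *Crtc1-/-* and 5 WT mice (points) with the mean ± SD as bars; every panel spans 0.7 log2 units and does not start at 0. Vessel markers are lowest in WT mice 4 and 5, as are the means of microglia and astrocytes, which are not plotted. The hippocampal mean of WT mouse 5 is the single WT value under a *Crtc1-/-* mouse.

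Markers of other tissue and cells were read in the same arrays. Of 7 hippocampal markers 2 fell, *Fibcd1* (log2 fold change −0.41, limma, adjusted p = 0.00922) and *Fam163b* (−0.28, adjusted p = 0.0188). Of all genes, 0.764% were called, with 0.456% lower. Log2 fold changes were below 0 in 4 of the 7 and above 0 in 3 (median −0.13). The mean of the 7 lay between 4.61 and 4.77 in *Crtc1-/-* mice and between 4.75 and 4.89 in WT mice. All 7 oligodendrocyte markers had log2 fold changes above 0 (median 0.17) and all 7 cortical neuron markers below 0 (median −0.07). By limma 0 were called in either list, and 3 of 7 in each had an unadjusted p under 0.05, against 9.86% of all genes. The cortical neuron mean lay between 11 and 11.08 in *Crtc1-/-* mice and between 11.09 and 11.16 in WT mice, without overlap. That of oligodendrocytes overlapped, with 10.56 to 10.89 in *Crtc1-/-* mice and 10.35 to 10.66 in WT mice. *Tagln*, a protein of contractile smooth muscle, had 0.38 (adjusted p = 0.257). Log2 fold changes were above 0 in 10 of 11 markers of pericytes and smooth muscle (median 0.11), 11 of 13 of meningeal fibroblasts (0.06), 10 of 13 of endothelium (0.03), 6 of 6 of astrocytes (0.10) and 4 of 6 of microglia (0.0081). None of these markers was called, and 4 had an unadjusted p under 0.05, a smaller share than the 9.86% of all genes. Of 7 choroid plexus markers, such as *Ttr*, and 3 blood markers, 0 were called by limma and 0 had an unadjusted p under 0.05. The part of any of these cells in the values of *Col5a1* and *Col8a1* was not tested.

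The genes that make, process and bind collagen were not called either. Measured were 16 enzymes and chaperones of collagen synthesis, 8 genes of processing and crosslinking and 8 receptors. Another 14 were other basement membrane components and 8 were other matrix proteins. Of these 54 in all, *Lum* and *Dcn* also stand among the meningeal markers. By limma 8 of the 54 had an unadjusted p under 0.05, a larger share than the 9.86% of all genes. Called were 0 of the 54, against 0.764% of all genes. At so low a share, 0 calls in a list of this size do not set it apart from other genes. The smallest p was that of *Colgalt1*, which attaches galactose to collagen in the endoplasmic reticulum (log2 fold change −0.21, limma, adjusted p = 0.115). Its values, 8.189 to 8.385 in *Crtc1-/-* mice and 8.441 to 8.579 in WT mice, did not overlap. *P4ha2*, a subunit of prolyl hydroxylase, had −0.28 (adjusted p = 0.331). *Adamts3*, which removes the amino propeptide of procollagens, had −0.38 (adjusted p = 0.154), and *Bmp1*, which removes the carboxy propeptide, 0.13 (adjusted p = 0.424).

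Among receptors, for *Itga1*, the integrin chain that binds type IV collagen, the log2 fold change was −0.12 (adjusted p = 0.734), and for *Ddr1*, a collagen receptor kinase, 0.08 (adjusted p = 0.796). In the basement membrane list, the laminin chains *Lamb1* and *Lama5* differed by −0.12 (adjusted p = 0.433) and −0.09 (adjusted p = 0.490). All 8 matrix proteins had log2 fold changes above 0. *Postn*, a matrix protein that binds type I collagen, had the largest of these at 0.47 (limma, adjusted p = 0.169). Its values were 5.87 to 6.42 in *Crtc1-/-* mice and 5.16 to 5.81 in WT mice. Like those of *Colgalt1*, they did not overlap, which held for 3.14% of all genes. *Mgp*, an inhibitor of calcification in vessel walls, had 0.29 (adjusted p = 0.424).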

How the data were processed

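RNA from the cerebral cortex of 10 female mice was hybridized by the authors to GeneChip Mouse Genome arrays, with label added to 300 ng total RNA per mouse by a 3′ IVT kit. The authors left out arrays of poor quality by a standard-error measure, and the study combined batches of mice, which the labels do not tell apart. Values were deposited on a log2 scale, 1 per probe set and array, and were used as deposited. The background correction, normalization and summarization are not given in the sources used here.

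The table holds 45101 probe sets, of which 64 are controls and were dropped. By GEO's platform annotation, 34945 of the other 45037 name 1 gene, and these cover 18193 genes, each read by its brightest probe set. Of 44 collagen genes in the RefSeq table, 2 (*Col6a6* and *Col28a1*) had no such probe set. The 42 genes matched RefSeq by gene ID, and 33 had an upstream sequence in the tables used.

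*Crtc1-/-* minus WT was fitted by limma 3.58.1 (lmFit, eBayes; R 4.3.3) with Benjamini-Hochberg correction over all genes, after a test on simulated data with known changes. Permutation tests were run in Python 3.11.15 with numpy 2.4.6. Genes given mouse by mouse are the 3 brightest fibrillar and 3 brightest basement membrane genes, all neuronal collagens, and every gene with an unadjusted p under 0.05. From the other lists, called members are named, and otherwise up to 2 with the smallest p. *Snap25* and *Slc17a7* are defining markers of cortex. *Aldh1a2*, *Slc6a13* and *Ttr* were named after their values were seen, as were the pairs of chains and the relations with marker means. The genes, lists and groups were chosen with earlier results of these data known.

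The fit was repeated with each mouse left out, without dim probe sets, without cross-hybridizing ones, with arrays quantile-normalized or centred by their medians, with array weights, with a trended and robust prior, with a block for replicate number, on the mean of a gene's probe sets, and with correction over probe sets.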

Additional observations from a re-analysis of the deposited data

Results flagged for a closer look

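A value of 1 mouse stood apart from the other 4 of its genotype in 5 of 84 groups tested (42 collagen genes in 2 genotypes), where about 1 in 20 groups, or 4.2, would do so by chance. *Col10a1* read 3.40 in *Crtc1-/-* mouse 2, against 3.59 to 3.66 in the other *Crtc1-/-* mice. *Col16a1* read 6.16 in WT mouse 1, against 6.47 to 6.53 in the other WT mice. *Col26a1* read 4.41 in WT mouse 1, against 4.79 to 4.85. *Col27a1* read 6.66 in WT mouse 3, against 6.52 to 6.54. *Col6a4* read 4.89 in WT mouse 5, against 5.26 to 5.35. Without the mouse that stood apart, the log2 fold change of *Col26a1* was 0.15 and that of *Col27a1* was 0.0052, the sign opposite to the −0.02 of all mice. The changes of *Col10a1*, *Col16a1* and *Col6a4* were not computed without theirs. *Col5a1* and *Col8a1* had no such mouse.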

How the results depend on the processing

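*Col5a1* was lower in all 19 alternatives and was called in 18, the exception being the replicate number as a block (adjusted p = 0.0832). Its adjusted p lay between 0.0173 and 0.0479 with each mouse left out in turn. *Col8a1* was higher in all 19 and was called in 12 (adjusted p from 0.0068 to 0.0721), and in 3 of 10 with a mouse left out. The count of called collagen genes, 2, was 1 with the replicate block, where *Col8a1* stayed called, 3 with the trended and robust prior, where *Col6a1* was added, and 1 to 2 with a mouse left out. The count over all genes, 139, was 236 with the trended and robust prior, 62 with the replicate block and 93 to 120 with a mouse left out. The block rests on numbers that share no animal or labelled batch. Deviations of same-numbered mice correlated between −0.26 and 0.06, and for 0 of 5 WT mice was the closest *Crtc1-/-* mouse the one of the same number.

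Without dim probe sets, which leaves 3 basement membrane and 2 neuronal genes, the median log2 fold changes of these groups were −0.17 and 0.12, against 0.08 and −0.10 with all. With the mean of all probe sets, the basement membrane median was 0.0077, and *Col1a2* (−0.057) and *Col3a1* (0.00015) changed sign. With a mouse left out, the small changes of *Col1a2* (−0.045 to 0.061), *Col27a1* (−0.059 to 0.0077) and *Col3a1* (−0.13 to 0.024) also crossed 0. The medians then lay between −0.03 and 0.02 for fibrillar, 0.04 and 0.11 for basement membrane and −0.14 and −0.03 for neuronal genes. Dim probe sets were not placed against background, since the values came without detection calls.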
